A study of Homo sapiens with 7 samples.

Results

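The 36 genes described here encode the heat shock chaperones of the cytosol and of the mitochondrial matrix, with their main partners. They are 7 genes of the HSP70 and HSP110 group, 2 BAG cofactors of HSP70, 5 HSP40 genes, 2 HSP90 genes, 7 HSP90 co-chaperones, the mitochondrial chaperonin genes HSPD1 and HSPE1, the 8 subunits of the cytosolic chaperonin CCT, the small heat shock protein gene HSPB1, and the transcription factor genes HSF1 and HSF2. They were picked by gene symbol out of the 22257 genes of the deposited count tables, with no measured value in the rule. Each gene is represented by its RefSeq transcript with the highest mean count over all libraries.

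The series holds 7 RNA-seq libraries of RL and JeKo-1, established lymphoma lines that the labels describe as mantle cell lymphoma, a B-cell malignancy in which a translocation switches on cyclin D1. There were 2 libraries of RL cells given a BTK inhibitor for 6 h, 2 of RL cells with no agent, 2 of JeKo-1 cells given the inhibitor for 6 h and 1 of JeKo-1 cells with no agent. The series title names the agent as ibrutinib, a covalent inhibitor of BTK, the kinase that passes on signals from the B-cell receptor. Its dose, and whether the controls received the vehicle, are not given in the sources used here. Each line is a single model of the disease, all cells were kept in the same kind of medium with serum, and no label states that replicate libraries are from separate cultures, so that the spread behind each p-value may be technical.

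Summed over all 34917 transcripts, the libraries held 32.4 to 56.8 M counts, in which transcripts of 1 gene repeat reads. The 5 B-cell markers summed to 2617 and 2590 CPM, counts scaled to library size, in treated RL, against 2285 and 2214 CPM in untreated RL, and to 954 and 975 CPM in treated JeKo-1, against 931 CPM in untreated JeKo-1. In both lines the sums hold markers that went opposite ways. MS4A1, which encodes CD20, had 94.1 and 88.1 CPM in treated JeKo-1, against 305 CPM in untreated JeKo-1. CD79B, a chain of the B-cell receptor complex, had 616 and 630 CPM in treated JeKo-1, against 334 CPM in untreated JeKo-1. In treated RL, CD79B had 740 and 725 CPM, against 370 and 348 CPM in untreated RL. PAX5, another of the markers, had 50.7 and 50.7 CPM in treated RL, against 69.3 and 68.8 CPM in untreated RL. Their part in the chaperone results was not tested. CCND1 and SOX11, the defining transcripts of mantle cell lymphoma, were present in every library. The 4 T-cell markers summed to at most 0.102 CPM in any library and the 4 myeloid markers to at most 2.89 CPM. EPCAM, an epithelial gene, stood at 75.6 to 82.0 CPM in the RL libraries and at 0 in the JeKo-1 libraries, and its part in the differences between the lines was not tested.

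Heat shock chaperones bind unfolded or partly folded proteins and help them reach or keep their native shape. HSP70 proteins work in cycles of ATP binding and hydrolysis that HSP40 proteins start and that HSP110 and BAG proteins reset, and they pass many clients to HSP90 through the adaptor STIP1. HSP90 holds kinases and hormone receptors in a form that can be activated, with co-chaperones such as CDC37 that bring in kinases. HSP60 with HSP10 folds proteins in a closed chamber inside mitochondria, and CCT, a double ring of related subunits, does so for actin, tubulin and other proteins in the cytosol. Stress induces many of these genes through HSF1, whereas cells under no stress already make large amounts of the constitutive members.

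In untreated cells, the 36 genes together took up 1.90% and 1.87% of all counts in RL and 2.48% in JeKo-1. Per kilobase of transcript, HSPA8, the constitutive cytosolic HSP70, was the highest of the 36 in both lines, at 1454 and 1426 CPM per kilobase in the RL controls and 1245 CPM per kilobase in the JeKo-1 control. The next place differed between the lines. HSP90AA1 held it in RL, with 302 and 271 CPM per kilobase, whereas HSP90AB1 held it in JeKo-1, with 886 CPM per kilobase. The stress-inducible genes HSPA1A and HSPA6 and, in RL, HSPA1B stood at the bottom of the order, all under 0.3 CPM per kilobase in RL.

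**Figure D1:**
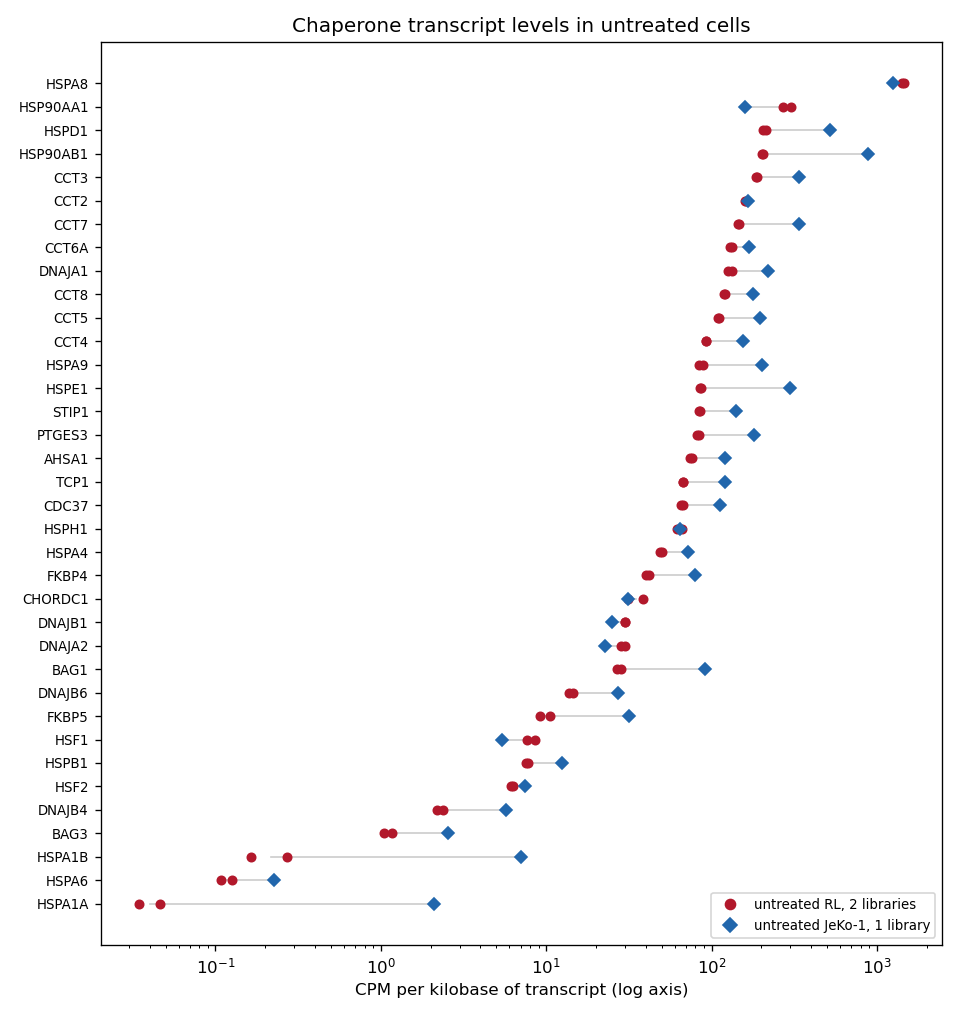
Levels of the 36 chaperone transcripts in untreated RL (circles, 2 libraries) and untreated JeKo-1 (diamonds, 1 library), in CPM per kilobase of transcript on a log axis, ordered by the RL mean. Most diamonds lie to the right of the circles; HSP90AA1 lies to the left, and HSPA1A and HSPA1B show the widest gaps.

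Untreated RL and untreated JeKo-1 were compared in a model of all 7 libraries, in which 76.4% of all genes tested were called (Benjamini-Hochberg adjusted p under 0.05 from edgeR's quasi-likelihood test, as in all comparisons here). In this comparison 39.1% of genes were called higher and 37.2% lower in RL. It rests on the single JeKo-1 control and on a fit with 3 residual degrees of freedom. Very small p-values thus lean on spread pooled over genes and groups, and do not measure a gene's own replicate spread. Of the 36 chaperone genes, 5 were higher in RL, 27 were lower and 4 were not called, with a median log2 fold change of -0.80. HSP90AB1, the constitutive cytosolic HSP90, had 526 and 520 CPM in untreated RL, against 2278 CPM in untreated JeKo-1, a log2 fold change of -2.12 ± 0.06 (standard error, as for all log2 fold changes here; adjusted p = 6.24e-17). HSP90AA1, the more stress-responsive HSP90, ran the other way, with 1059 and 953 CPM in untreated RL, against 561 CPM in untreated JeKo-1 (0.84 ± 0.08, adjusted p = 1.76e-08). HSP90AA1 thus made up 66.8% and 64.7% of HSP90 counts in untreated RL and 19.8% in untreated JeKo-1.

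Other chaperone genes also differed between the untreated lines. HSPE1, the HSP10 lid of HSP60, had 80.4 and 82.2 CPM in RL, against 282 CPM in JeKo-1 (-1.79 ± 0.06, adjusted p = 2.07e-15). BAG1, a nucleotide exchange factor of HSP70, was lower in RL, with a log2 fold change of -1.73 ± 0.06. FKBP5, an HSP90-binding immunophilin, was lower in RL as well, at -1.70 ± 0.08. All 8 CCT subunits had negative values and 7 were called, from -1.21 for CCT7 to -0.38 for CCT6A, while CCT2 stood at -0.04 ± 0.06. Besides HSP90AA1, the genes higher in RL were HSF1 (0.58 ± 0.11), DNAJA2 (0.36 ± 0.06), DNAJB1 (0.27 ± 0.07) and HSPA8 (0.21 ± 0.08). DESeq2's test did not call HSPA8 (adjusted p = 0.197), and its call was also lost without RL control replicate 1 or without either treated JeKo-1 library.

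After 6 h of BTK inhibitor, chaperone transcripts fell in RL across most families, and none rose. Of the 35 genes tested, 24 fell and 11 were not called; HSPA1A had too few reads for the test. Over all 14932 genes tested in RL, 30.4% were called, 15.1% higher and 15.3% lower. The median log2 fold change of the chaperone genes was -0.28, against 0.01 over all genes tested. Both treated libraries lay below both controls in 29 of the 35 genes, against 32.9% of all genes tested. The 29 include all 24 that fell, and all 2287 genes called lower in RL lay in that order. The order thus largely repeats the calls and is no separate evidence. Together the 36 genes made up 1.43% and 1.31% of counts in treated RL, against 1.90% and 1.87% in untreated RL. In bulk libraries, fewer cells of a type and less RNA per cell cannot be told apart.

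In JeKo-1 the picture was mixed. Of 36 genes tested, 4 rose, 12 fell and 20 were not called, against 28.3% of all 14050 genes called, 13.4% higher and 14.9% lower. The median log2 fold change was -0.02, against -0.01 over all genes tested. The 36 genes made up 2.39% and 2.30% of counts in treated JeKo-1, against 2.48% in untreated JeKo-1. These calls rest on a single control and on a fit with 1 residual degree of freedom. Their p-values thus lean on spread pooled over genes, and very small ones do not measure a gene's own replicate spread. DESeq2 called 8 genes in place of 16, and the model of all 7 libraries called 14. In that model, calls were also lost when a treated library was left out. Both treated libraries can lie on the same side of a single control by chance, and the share of all genes so placed was not counted.

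**Figure D2:**
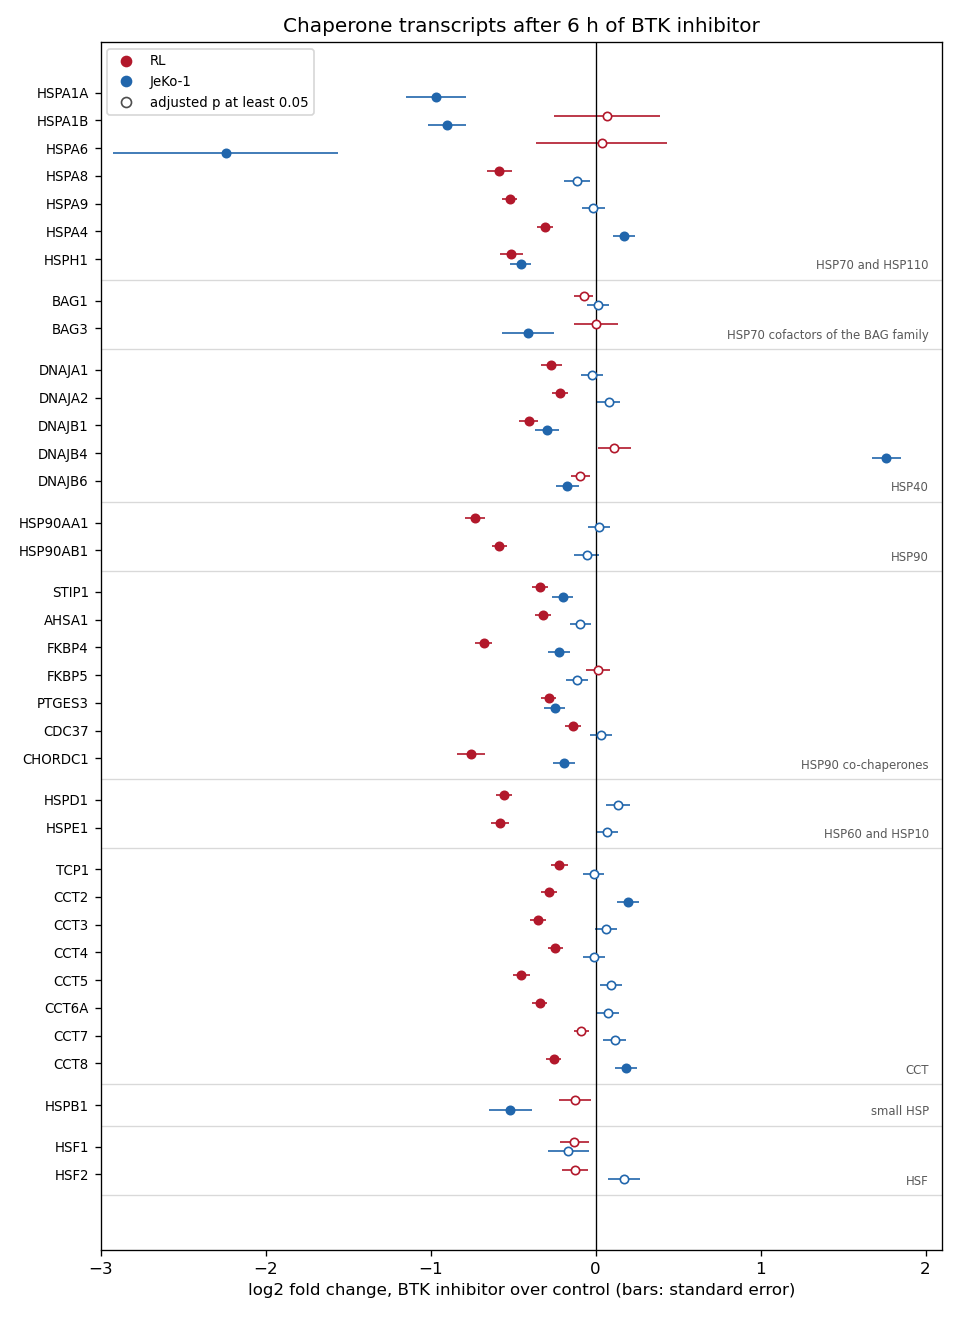
Log2 fold change of each chaperone gene, BTK inhibitor over control, with its standard error, in RL (red) and JeKo-1 (blue); filled points passed an adjusted p under 0.05, and HSPA1A was not tested in RL. Red points lie left of 0 for HSP90, HSP60 and CCT, where most blue points lie near 0; DNAJB4 in JeKo-1 stands alone on the right.

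Of the HSP70 group, the abundant constitutive genes fell in RL. HSPA8 had 2573 and 2136 CPM in treated RL, against 3581 and 3513 CPM in untreated RL, a fall of 0.58 ± 0.08 on the log2 scale (adjusted p = 0.000126). In JeKo-1 it had 2947 and 2751 CPM with the inhibitor and 3066 CPM without, and was not called (-0.11 ± 0.08, adjusted p = 0.291). Both treated libraries thus lay below both controls in RL by a wide margin, and below the single control in JeKo-1 by a narrow one. The promoter of HSPA8 holds a heat shock element triplet, the binding pattern of HSF1, shown because this gene carried the most counts of the 36. It lies at chr11:123062173-123062202 on the minus strand (RefSeq, GRCh38.p14), with the triplet in capitals.
HSPA8: gggcgggccccTTCTGGAAGGTTCtaagat

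HSPA9, the mitochondrial HSP70 that pulls imported proteins into the matrix, had 286 and 280 CPM in treated RL, against 397 and 419 CPM in untreated RL (-0.52 ± 0.05, adjusted p = 1.01e-05). In JeKo-1 it stood at 971 and 929 CPM with the inhibitor and 954 CPM without, so that the treated libraries lay on both sides of the control (-0.01 ± 0.07, adjusted p = 0.917). HSPA4, an HSP110-type exchange factor, moved in opposite directions. It had 199 and 187 CPM in treated RL, against 236 and 242 CPM in untreated RL (-0.31 ± 0.05, adjusted p = 0.000573). In JeKo-1 it had 407 and 383 CPM with the inhibitor and 348 CPM without (0.17 ± 0.07, adjusted p = 0.0323), a call that was lost without treated replicate 1 (adjusted p = 0.172) and in DESeq2's test (adjusted p = 0.0623).

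HSPH1, the heat-inducible HSP110, fell in both lines by a like amount. It had 252 and 214 CPM in treated RL, against 343 and 322 CPM in untreated RL (-0.51 ± 0.07, adjusted p = 0.000183). Treated JeKo-1 had 255 and 234 CPM, against 333 CPM in untreated JeKo-1 (-0.45 ± 0.06, adjusted p = 2.35e-11). The untreated lines started from close levels of this gene (RL over JeKo-1: 0.00 ± 0.08, adjusted p = 0.983).

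The stress-inducible HSP70 genes HSPA1A and HSPA1B fell in JeKo-1 and were nearly silent in RL. HSPA1A had 2.66 and 2.71 CPM in treated JeKo-1, against 5.23 CPM in untreated JeKo-1 (-0.97 ± 0.18, adjusted p = 1.53e-06; 0.0731 in DESeq2's test). HSPA1B had 9.08 and 10.0 CPM in treated JeKo-1, against 17.8 CPM in untreated JeKo-1 (-0.90 ± 0.11, adjusted p = 5.73e-14). The pair encode nearly identical proteins and share sequence, so reads may have been split between them. With their reads summed, treated JeKo-1 held 415 and 470 counts, against 906 in untreated JeKo-1, and the sum fell by 0.92 ± 0.10 (adjusted p = 1.85e-17). In RL, HSPA1A alone had 2 and 4 counts with the inhibitor, against 5 and 4 without. The same sum came to 26 and 35 counts in treated RL, against 23 and 36 in untreated RL. These ranges overlap, and in untreated cells the sum was lower in RL than in JeKo-1 (log2 fold change -5.13 ± 0.16).

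HSPA6, an inducible HSP70 that resting cells barely express, was close to the limit of detection. It had 3 and 5 counts in treated JeKo-1, against 21 in untreated JeKo-1 (-2.24 ± 0.68, adjusted p = 0.00552), and 12 and 15 in treated RL, against 13 and 12 in untreated RL. The JeKo-1 call was lost without treated replicate 1 (adjusted p = 0.0640), and DESeq2 gave the gene no adjusted p. The promoters of these inducible genes are shown beside that of HSPA8, since they moved in the other line. A triplet is in capitals for HSPA6 (chr1:161524430-161524509, plus strand), and an inverted pair GAANNTTC for HSPA1A (chr6:31815428-31815457, plus strand) and HSPA1B (chr6:31827608-31827687, plus strand).
HSPA6: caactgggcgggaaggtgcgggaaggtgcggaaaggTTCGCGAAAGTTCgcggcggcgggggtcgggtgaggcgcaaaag
HSPA1A: aaaaccctgGAATATTCccgacctggcagc
HSPA1B: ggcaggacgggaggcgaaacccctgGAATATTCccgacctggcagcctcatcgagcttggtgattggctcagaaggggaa

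**Figure D3:**
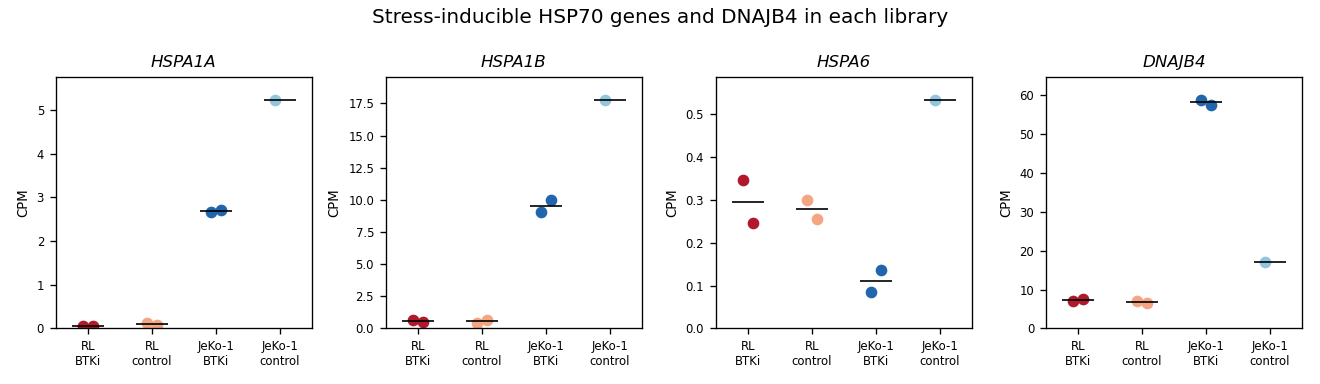
CPM in each library (points) and group mean (line) for the stress-inducible HSP70 genes and DNAJB4, with linear axes from 0. HSPA1A, HSPA1B and HSPA6 were lower in both treated JeKo-1 libraries than in the control, and DNAJB4 was higher; the RL groups overlap in HSPA1B, HSPA6 and DNAJB4.

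Of the BAG cofactors, which release nucleotide and client from HSP70, neither was called in RL. BAG3, the stress-inducible member that feeds clients to autophagy, had 185 and 176 counts in treated JeKo-1, against 260 in untreated JeKo-1 (-0.41 ± 0.16, adjusted p = 0.0347). That call was lost with no filter on low counts, in DESeq2's test and without either treated library. In RL, BAG3 had 2.74 and 2.89 CPM with the inhibitor, against 2.67 and 3.01 CPM without, and the groups overlapped. BAG1 had log2 fold changes of -0.07 ± 0.06 in RL and 0.02 ± 0.07 in JeKo-1.

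Of the 5 HSP40 genes, 3 fell in RL. DNAJB1, the main heat-inducible HSP40 and partner of HSPA8, had 54.3 and 48.0 CPM in treated RL, against 68.1 and 67.7 CPM in untreated RL (-0.41 ± 0.06, adjusted p = 0.000341). In JeKo-1 it had 45.7 and 46.3 CPM with the inhibitor, against 56.2 CPM without (-0.30 ± 0.07, adjusted p = 0.000360). The treated libraries lay below both controls in RL and below the single control in JeKo-1. The JeKo-1 call was lost without treated replicate 1 and in DESeq2's test (adjusted p = 0.0784). DNAJA1 and DNAJA2, the constitutive partners of HSP70 in folding, had log2 fold changes of -0.27 ± 0.06 and -0.22 ± 0.05 in RL, both called. Without RL control replicate 1, DNAJA2 lost its call (adjusted p = 0.0761). In JeKo-1, DNAJA1 stood at -0.02 ± 0.07 and DNAJA2 at 0.08 ± 0.07, neither called.

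DNAJB4, an HSP40 also known as HLJ1, showed the highest fold change of the 36 in JeKo-1. It had 58.8 and 57.5 CPM in treated JeKo-1, against 17.03 CPM in untreated JeKo-1, a rise of 1.76 ± 0.09 on the log2 scale or 3.40-fold (adjusted p = 1.08e-89). In RL it had 6.93 and 7.67 CPM with the inhibitor, against 7.14 and 6.54 CPM without, and the groups overlapped (0.11 ± 0.10, adjusted p = 0.438). FUBP1, whose annotated gene overlaps that of DNAJB4, had 257 and 255 CPM in treated JeKo-1, against 218 CPM in untreated JeKo-1 (0.22 ± 0.07), and without strand marks in the libraries, reads of overlapping genes cannot be told apart. In RL, FUBP1 fell by 0.31 ± 0.04. DNAJB6, which keeps aggregation-prone proteins soluble, had 61.8 and 61.5 CPM in treated JeKo-1, against 69.1 CPM in untreated JeKo-1 (-0.17 ± 0.07, adjusted p = 0.0469). That call was lost in every other fit of JeKo-1, and in RL the gene was not called (-0.09 ± 0.06). Its other deposited transcript had larger falls, of -0.22 in JeKo-1 and -0.26 in RL, where it was not called either.

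The promoters of DNAJB1 and DNAJB4 are shown because their genes moved in opposite directions in JeKo-1. Both genes have other RefSeq starts too, and those shown were not matched to the counted transcripts. The DNAJB1 stretch (chr19:14518428-14518507, minus strand) holds 2 inverted GAANNTTC pairs, in capitals, and the DNAJB4 stretch (chr1:78004831-78004860, plus strand) the other form, TTCNNGAA.
DNAJB1: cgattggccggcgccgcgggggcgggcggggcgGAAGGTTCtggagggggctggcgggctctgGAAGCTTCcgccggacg
DNAJB4: gcatttgctgTTCTAGAAagtacagagaca

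Both HSP90 genes fell in RL and were not called in JeKo-1. HSP90AA1 had 630 and 577 CPM in treated RL, against 1059 and 953 CPM in untreated RL, a fall of 0.73 ± 0.06 (adjusted p = 5.98e-06). In JeKo-1 it had 610 and 533 CPM with the inhibitor, on either side of the 561 CPM without (0.02 ± 0.07, adjusted p = 0.875). HSP90AB1 had 353 and 342 CPM in treated RL, against 526 and 520 CPM in untreated RL (-0.58 ± 0.05, adjusted p = 3.51e-06), and 2245 and 2169 CPM in treated JeKo-1, against 2278 CPM in untreated JeKo-1 (-0.05 ± 0.08, adjusted p = 0.659). HSP90AA1 made up 64.1% and 62.8% of HSP90 counts in treated RL, against 66.8% and 64.7% in untreated RL, and 21.4% and 19.7% in treated JeKo-1, against 19.8% in untreated JeKo-1.

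Of the 7 HSP90 co-chaperones, 6 fell in RL and 4 of those also in JeKo-1. CHORDC1, which binds HSP90 and is known to be heat-inducible, had 53.8 and 55.4 CPM in treated RL, against 103 and 82.6 CPM in untreated RL (-0.76 ± 0.08, adjusted p = 4.00e-05), the lowest log2 fold change of the 36 in RL. Treated JeKo-1 had 77.0 and 69.6 CPM, against 83.3 CPM in untreated JeKo-1 (-0.19 ± 0.07, adjusted p = 0.0197), a call lost without either treated library (adjusted p = 0.180 and 0.611), with no filter on low counts, in the model of all 7 libraries and in DESeq2's test. The treated RL libraries lay well below both controls, which differed from each other more than in most genes. The promoters of HSP90AA1 (chr14:102087105-102087134, minus strand) and CHORDC1 (chr11:90223081-90223110, minus strand) are shown as those of the genes with the lowest log2 fold changes in RL. HSP90AA1 has other RefSeq starts too, and the one shown was not matched to its counted transcript. Heat shock elements are in capitals.
HSP90AA1: tcTTCCGGAAGGTTCgggaggcTTCTGGAA
CHORDC1: gGAAAATTCGCGAAGGTTCCTGAAacgcaa

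FKBP4, the immunophilin FKBP52 that serves steroid receptors, had 98.5 and 92.7 CPM in treated RL, against 156 and 151 CPM in untreated RL (-0.68 ± 0.05, adjusted p = 2.05e-06). In JeKo-1 it had 260 and 252 CPM with the inhibitor, against 297 CPM without (-0.22 ± 0.06, adjusted p = 0.00326), a call lost without treated replicate 2 (adjusted p = 0.0814). Its relative FKBP5, which is known to rise with glucocorticoids, was not called in either line (0.02 ± 0.07 in RL and -0.11 ± 0.07 in JeKo-1).

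PTGES3, the p23 protein that stabilizes the closed form of HSP90, had 130 and 131 CPM in treated RL, against 162 and 157 CPM in untreated RL (-0.29 ± 0.05), and 305 and 286 CPM in treated JeKo-1, against 349 CPM in untreated JeKo-1 (-0.25 ± 0.06). STIP1, the adaptor between HSP70 and HSP90, had 151 and 143 CPM in treated RL, against 188 and 184 CPM in untreated RL (-0.34 ± 0.05), and 273 and 268 CPM in treated JeKo-1, against 309 CPM in untreated JeKo-1 (-0.20 ± 0.06). The treated libraries of both genes lay below both controls in RL and below the single control in JeKo-1. For JeKo-1, the share of all genes in that order was not counted. Without treated replicate 2 the JeKo-1 calls of PTGES3 and STIP1 were lost, and that of STIP1 also without treated replicate 1. AHSA1, which speeds up HSP90's ATPase, fell in RL (-0.32 ± 0.05) and stood at -0.09 ± 0.06 in JeKo-1. CDC37, the kinase adaptor, had a small fall in RL (-0.14 ± 0.05, adjusted p = 0.0441) that was lost in DESeq2's test, with 1 transcript per gene in the fit and without any of 3 RL libraries: treated replicate 2, control replicate 1 or control replicate 2.

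**Figure D4:**
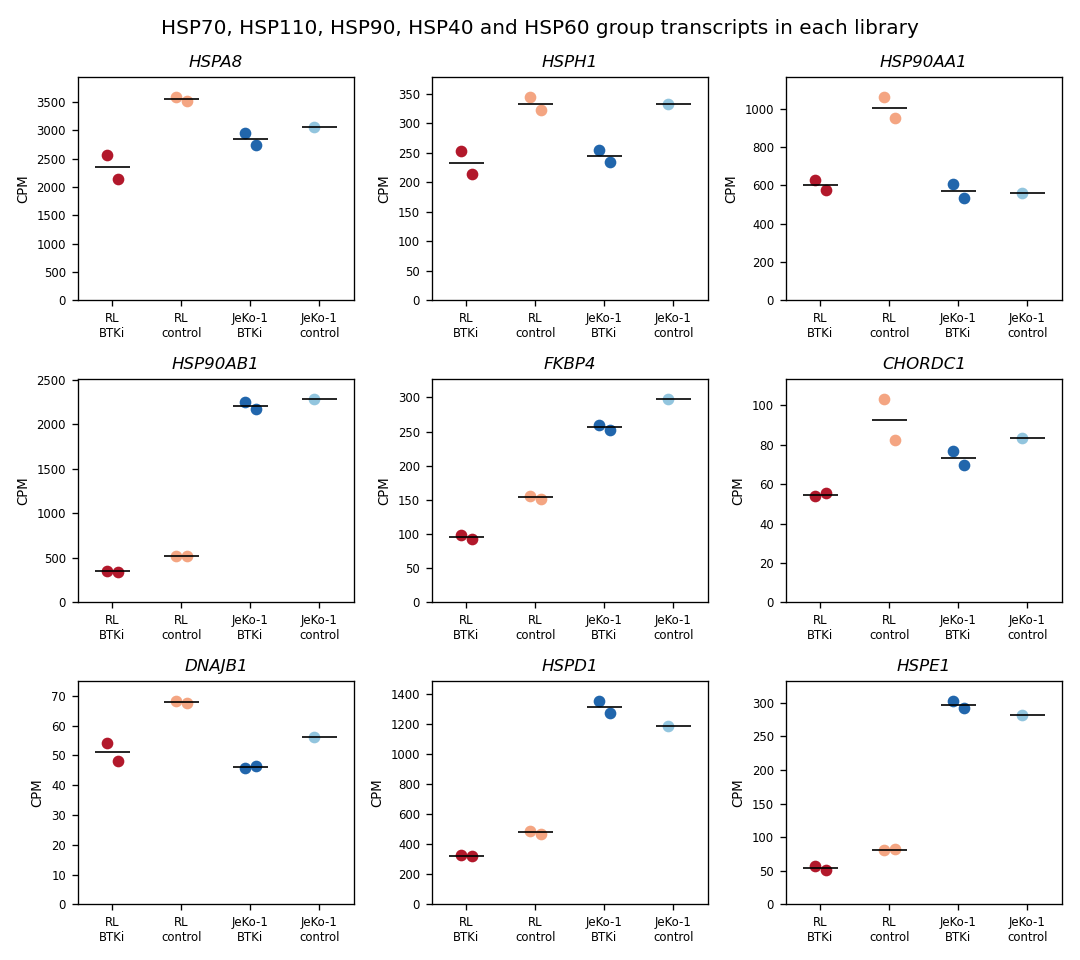
CPM in each library (points) and group mean (line) for 9 chaperone genes, with linear axes from 0; for each line the treated libraries stand left of the control. In RL the treated points lie below both controls in all 9 genes, whereas in JeKo-1 HSP90AA1 straddles its control and HSPD1 and HSPE1 lie above theirs.

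The mitochondrial chaperonin pair fell together in RL. HSPD1, which encodes HSP60, had 332 and 320 CPM in treated RL, against 490 and 470 CPM in untreated RL (-0.55 ± 0.05, adjusted p = 6.77e-06). HSPE1 had 57.0 and 51.6 CPM in treated RL, against 80.4 and 82.2 CPM in untreated RL (-0.58 ± 0.06, adjusted p = 1.54e-05). In JeKo-1 the treated libraries lay slightly above the control in CPM in both genes, and neither was called. The log2 ratios that the authors deposited for JeKo-1 were -0.11 for HSPD1 and -0.02 for HSPE1. HSPD1 had 1352 and 1276 CPM in treated JeKo-1, against 1189 CPM in untreated JeKo-1 (0.14 ± 0.07, adjusted p = 0.150), and HSPE1 302 and 292 CPM, against 282 CPM (0.07 ± 0.07, adjusted p = 0.472).

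HSPD1 and HSPE1 are neighbours read in opposite directions, with RefSeq starts that have 104 bases between them on chromosome 2. Both promoter windows hold the same E-box CACGTG, the binding pattern of MYC and related factors, at chr2:197500357-197500362. It is shown, in capitals, because the genes at its sides fell by like amounts in RL. The stretch lies at chr2:197500345-197500374, on the plus strand.
HSPE1: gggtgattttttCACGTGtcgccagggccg

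All 8 CCT subunits had negative log2 fold changes in RL, of which 7 were called. CCT5 had 310 and 284 CPM in treated RL, against 404 and 410 CPM in untreated RL (-0.45 ± 0.05, adjusted p = 5.25e-05), the lowest value of the ring. CCT3 had 304 and 292 CPM in treated RL, against 378 and 384 CPM in untreated RL (-0.35 ± 0.05). CCT6A had 287 and 272 CPM in treated RL, against 359 and 351 CPM in untreated RL (-0.34 ± 0.05). The remaining calls were CCT2 (-0.28 ± 0.05), CCT8 (-0.25 ± 0.05), CCT4 (-0.24 ± 0.05) and TCP1 (-0.22 ± 0.05). CCT7 had 283 and 272 CPM in treated RL, against 293 and 299 CPM in untreated RL, and was not called (-0.09 ± 0.05, adjusted p = 0.183).

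In JeKo-1, 2 subunits rose and none fell. CCT2 had 427 and 407 CPM in treated JeKo-1, against 362 CPM in untreated JeKo-1 (0.20 ± 0.07, adjusted p = 0.0134). CCT8 had 409 and 404 CPM in treated JeKo-1, against 356 CPM in untreated JeKo-1 (0.18 ± 0.07, adjusted p = 0.0225). Both calls were lost without treated replicate 1 (adjusted p = 0.0847 and 0.0608). The other 6 subunits ran from -0.01 for TCP1 to 0.12 for CCT7. Summed over the ring, CCT transcripts came to 2034 and 1929 CPM in treated RL, against 2426 and 2441 CPM in untreated RL, and to 4328 and 4173 CPM in treated JeKo-1, against 3969 CPM in untreated JeKo-1.

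**Figure D5:**
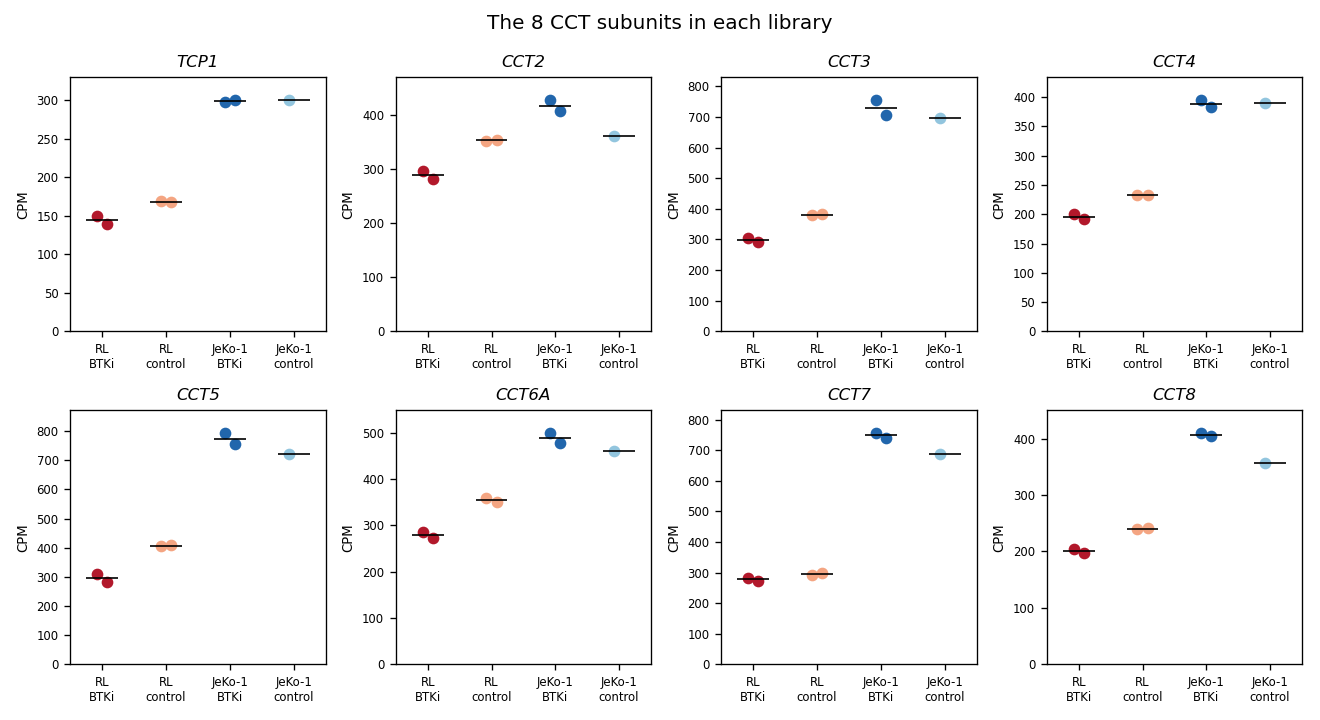
CPM in each library (points) and group mean (line) for the 8 CCT subunits, with linear axes from 0. The treated RL points lie below both RL controls in every panel, and the JeKo-1 points lie above those of RL in every panel.

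HSPB1, the small heat shock protein HSP27 that holds unfolded proteins without ATP, had 6.39 and 9.43 CPM in treated JeKo-1, against 11.3 CPM in untreated JeKo-1 (-0.52 ± 0.13, adjusted p = 0.000498). The treated libraries differed from each other more than either did in most chaperone genes, and without treated replicate 1 the value was -0.25 ± 0.12 (adjusted p = 0.209). DESeq2's test did not call it either (adjusted p = 0.271). In RL it had 6.06 and 6.56 CPM with the inhibitor, against 6.86 and 7.05 CPM without, and was not called (-0.13 ± 0.10).

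The genes of the heat shock factors themselves were not called in either line. HSF1, the factor that induces chaperones on stress, had 14.7 and 16.7 CPM in treated RL, against 18.3 and 16.3 CPM in untreated RL, and 10.1 and 10.7 CPM in treated JeKo-1, against 11.6 CPM in untreated JeKo-1. The RL groups overlapped. HSF2, its relative, had 13.7 and 15.1 CPM in treated RL, against 16.1 and 15.5 CPM in untreated RL, and 22.6 and 20.6 CPM in treated JeKo-1, against 19.1 CPM in untreated JeKo-1. HSF1 is known to be switched on by protein modification and trimer formation, which transcript counts do not measure.

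The inhibitor's effect was compared between the lines directly, as the RL log2 fold change minus that of JeKo-1 in the model of all 7 libraries. Over all genes tested, 17.8% differed, 8.95% higher and 8.82% lower. These p-values also rest on the single JeKo-1 control and lean on spread pooled over genes and groups. Of the 36 chaperone genes, 18 had a lower effect in RL, 2 a higher one and 16 were not called. Both HSP90 genes, HSPD1 and HSPE1, and 6 of 8 CCT subunits were among the 18. HSPD1 differed by -0.70 ± 0.08 (adjusted p = 4.04e-06) and HSP90AA1 by -0.76 ± 0.10 (adjusted p = 3.05e-05).

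Of the genes that fell in both lines, 4 had no called difference. HSPH1 (-0.07 ± 0.10), PTGES3 (-0.05 ± 0.08), DNAJB1 (-0.12 ± 0.10) and STIP1 (-0.15 ± 0.08) were those genes, which does not show that the effects were equal. In all, 6 genes fell in both lines, HSPH1, DNAJB1, STIP1, FKBP4, PTGES3 and CHORDC1, out of 24 that fell in RL and 12 that fell in JeKo-1. The share of all genes that fell in both lines was not counted, so these 6 are no measure of a shared response. For FKBP4 (-0.47 ± 0.08) and CHORDC1 (-0.58 ± 0.12) the fall was called larger in RL. HSPA4, CCT2 and CCT8 fell in RL and rose in JeKo-1, with differences of -0.49 ± 0.08, -0.49 ± 0.08 and -0.45 ± 0.07, all called.

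Related genes outside the 36 were counted in lists by role, to be read against the shares of all genes called, 15.1% higher and 15.3% lower in RL and 13.4% higher and 14.9% lower in JeKo-1. Among 30 other HSP40 genes in RL, 3 rose and 6 fell, with DNAJC2, which encodes an HSP40 that binds the ribosome, at -0.49 ± 0.08 and DNAJB2 at 0.52 ± 0.06. In JeKo-1, 1 of these rose and 6 fell. Among 20 other HSP90 co-chaperones, 5 rose and 6 fell in RL, and 5 rose and 1 fell in JeKo-1. RUVBL1, an ATPase of the R2TP complex, had opposite signs, with -0.35 ± 0.05 in RL and 0.25 ± 0.07 in JeKo-1. The list of 10 other HSP70 and HSP110 genes also holds HSP70 cofactors and genes of the endoplasmic reticulum. It had 2 falls among 9 tested in RL, and 1 rise and 2 falls among 7 tested in JeKo-1.

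Of 13 mitochondrial chaperones and proteases, 5 fell and none rose in RL, led by TRAP1, the mitochondrial HSP90 (-0.36 ± 0.05). In JeKo-1 only DNAJA3, a mitochondrial HSP40, was called, at -0.22 ± 0.08. DNAJA3 is also in the list of other HSP40 genes, and its falls in both lines are counted in both lists. Of 16 prefoldin subunits and CCT cofactors, 2 rose and 2 fell in RL, and 3 rose and 1 fell in JeKo-1, with medians of -0.07 and 0.13. PFDN5, a prefoldin subunit, rose in both lines (0.17 ± 0.05 in RL and 0.23 ± 0.07 in JeKo-1). Of the other BAG and small heat shock protein genes, BAG2, a BAG cofactor, fell in both lines (-0.49 ± 0.13 in RL and -0.28 ± 0.10 in JeKo-1). Of the 12 genes in that list, 5 had enough reads for the test in each line, of which 1 rose and 2 fell in RL and 2 fell in JeKo-1.

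Other genes of the heat shock response gave 2 rises and 4 falls among 15 tested in RL, and 2 rises and 4 falls among 14 tested in JeKo-1. IER5, a cofactor of HSF1, fell in both lines (-0.45 ± 0.05 in RL and -0.83 ± 0.09 in JeKo-1). HMOX1, the heme oxygenase gene, had a log2 fold change of -1.94 ± 0.36 in JeKo-1, at 0.429 CPM in treated and 1.65 CPM in untreated cells. Of 13 chaperones of the endoplasmic reticulum, 11 fell and none rose in each line, though not all the same genes. The inhibitor's effect differed between the lines in 5 of the 13, against 17.8% of all genes: it was lower in RL for HSPA5, MANF, PDIA3 and CANX, and higher for CRELD2. HSPA5, the HSP70 of that compartment, fell by 1.14 ± 0.05 in RL. The medians were -0.48 in RL and -0.42 in JeKo-1, beside -0.28 and -0.02 for the cytosolic and mitochondrial genes.

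Promoter windows of 300 bases, from 250 before to 50 after each RefSeq start, matched 33 of the 36 genes; CCT6A, FKBP4 and HSF1 had none. The inverted pair GAANNTTC occurred in 14 of the 33 genes (42.4%), against 8.21% of all 27305 genes with a window, and the pair TTCNNGAA in 12 (36.4%), against 9.46%. The triplet, in which GAANNTTC runs on into NNGAA, or its reverse complement, and which thus contains both pairs, occurred in 8 (24.2%), against 0.608%. These were HSPA6, HSPA8, HSP90AA1, HSP90AB1, CHORDC1, DNAJA1, DNAJB6 and HSPD1. Both strands were searched for each motif, and each match describes letters in the window, not a bound site. Windows were matched by gene symbol, so a motif may lie at a start other than that of the counted transcript. Of the 8 genes with a triplet, 6 fell in RL and 3 fell in JeKo-1, beside 24 of 35 and 12 of 36 of all the chaperone genes tested, and 15.3% and 14.9% of all genes. The E-box CACGTG occurred in 5 genes (15.2%), against 8.77% of all genes. HSPD1 and HSPE1 share the same site, which is thus counted for both genes. Of the 5, HSPA9, HSPD1 and HSPE1 fell in RL, beside 24 of 35 of all the chaperone genes tested. FKBP5 and HSF2 were not called in RL, and none of the 5 was called in JeKo-1.

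The authors' deposited table of log2 ratios gave the same sign for all 24 genes called in RL and all 16 called in JeKo-1. These ratios come from the same libraries. The JeKo-1 ratio column of the authors' deposited table is headed as that of an ALK inhibitor, but in all 34917 transcripts it equals, within 1e-06, the mean of the normalized columns headed with the BTK inhibitor minus that of the control. In the authors' deposited table for RL, 22 of the 36 genes had an FDR under 0.05 with a ratio below 0 and none had one above 0. All 22 were among the 24 that fell here. In the authors' deposited table for JeKo-1, which holds no test, 6 of the 36 ratios were above 0 and 30 below, against 15 above and 21 below here. Signs thus differed in some genes not called here. HSPD1 had -0.11 there and 0.14 here, HSPE1 -0.02 and 0.07, and HSP90AA1 -0.16 and 0.02. Of the CCT subunits, CCT3, CCT5, CCT6A and CCT7 were below 0 there and above 0 here. CCT2 and CCT8 were above 0 in both, and TCP1 and CCT4 below 0 in both.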

How the data were processed

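Libraries came from an unstranded TruSeq RNA kit, per the labels' protocols. The submitters' processing notes name CASAVA 1.8, BWA, Partek 6.6 and the build hg19 (GRCh37); the role of each is not given in the sources used here. The authors deposited raw read counts per RefSeq transcript for each library. The authors also deposited log2 ratios of treated to control per line and, for RL, p-values with an FDR whose test is not stated; these were used to compare signs and calls. The authors' log2 normalized values for JeKo-1 served to check what its ratio column holds. A joint table of selected genes was not used here.

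Counts were used as deposited. Transcripts of a gene repeat reads, so they were not summed; all entered the fits and each gene is given by its transcript with the highest mean count. Tests used edgeR 4.0.16 in R 4.3.3 (filterByExpr, TMM, glmQLFit, glmQLFTest), two-sided, with Benjamini-Hochberg adjustment over transcripts. Each line had its own fit, with 25099 transcripts and 2 residual degrees of freedom in RL, and 23564 transcripts and 1 residual degree of freedom in JeKo-1. Differences between lines came from a 4-group model of 26362 transcripts in the 7 libraries. The lone JeKo-1 control is assumed to vary like the other libraries. The common coefficient of biological variation came to 4.51% (RL), 3.91% (JeKo-1) and 4.35% (4-group model). Standard errors are the log2 fold change over the root of F. CPM use all transcripts and the 4-group scaling factors, and lengths came from GENCODE v29, matched by accession for all 36 genes. Of the 36 genes, 17 overlap another annotated gene, and several have near-identical copies or pseudogenes elsewhere, so that some of their reads are uncertain. The procedures were tested on simulated counts.

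Alternatives were median-of-ratios scaling, no filter, DESeq2 1.42.0, limma-voom (limma 3.58.1), 1 transcript per gene, the 4-group model, a replicate block and leaving out libraries. The summing of HSPA1A and HSPA1B reads and the block in the 4-group model were chosen after seeing the data. Values of every library are given for up to 3 genes of each family with the smallest p in either line and for HSPA1A, HSPA1B, HSPA6, HSPH1, DNAJB1 and HSF1; other lists give up to 3 called genes per line, and 1 of these genes is not reported here. FUBP1 was added after its values were seen. The genes and lists were chosen with earlier results of these data known.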

Additional observations from a re-analysis of the deposited data

Results flagged for a closer look

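The inhibitor's effect differed between RL and JeKo-1 in 20 of the 36 chaperone genes (adjusted p under 0.05 in edgeR's test of the difference, RL effect minus JeKo-1 effect on the log2 scale; 17.8% of all genes tested differed). Lower effects in RL were found for DNAJB4 (-1.66), HSP90AA1 (-0.76), HSP90AB1 (-0.55), HSPD1 (-0.70) and HSPE1 (-0.66). Among HSP70 and HSP110 genes they were -0.52 for HSPA9, -0.49 for HSPA4 and -0.49 for HSPA8. Among co-chaperones and HSP40 genes they were -0.58 for CHORDC1, -0.47 for FKBP4, -0.24 for AHSA1 and -0.31 for DNAJA2. Among CCT subunits they were -0.56 for CCT5, -0.49 for CCT2, -0.45 for CCT8, -0.43 for CCT6A, -0.43 for CCT3 and -0.25 for CCT4. The calls of AHSA1, CCT4 and DNAJA2 were lost without some single libraries (adjusted p from 0.0543 to 0.137), among them control replicate 1 of RL and treated replicate 1 of JeKo-1 for each, and treated replicate 2 and control replicate 2 of RL for AHSA1 and CCT4. So was that of HSPA8 in DESeq2's test (adjusted p = 0.0526). DNAJA1, TCP1 and CCT7 missed the threshold (adjusted p = 0.0668, 0.0558 and 0.0520) and passed it in some alternatives. HSPB1 (0.38, not called) passed it without treated replicate 2 of JeKo-1, at 0.68 (adjusted p = 0.0136), and ran from 0.13 to 0.68 over the alternatives.

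Higher effects in RL were found for HSPA6 (2.27) and HSPA1B (0.95), both of which fell in JeKo-1. Each rests on 12 to 32 counts per RL library. The call of HSPA1B was lost in limma-voom (adjusted p = 0.0645), in DESeq2's test (adjusted p = 0.105) and without treated or control replicate 1 of RL or either treated JeKo-1 library. That of HSPA6 was lost without treated replicate 1 or control replicate 2 of RL or either treated JeKo-1 library, with adjusted p from 0.0580 to 0.127. DESeq2's test gave HSPA6 no adjusted p. With HSPA1A and HSPA1B reads summed, the difference was 0.88 ± 0.29 (adjusted p = 0.0388).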

How the results depend on the processing

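No chaperone gene that was called changed direction in any alternative run. JeKo-1 fits without a library used the model of all 7 libraries. With every library in, that model called 14 chaperone genes and 3521 genes in all in JeKo-1. In RL the 24 calls ranged from 22 to 24 across all alternatives. In JeKo-1 the 16 calls (4 higher, 12 lower) became 8 in DESeq2's test (5 lower) and 6 to 10 when a treated library was left out, with 1 to 4 higher and 5 to 6 lower. The 2 genes with a higher effect in RL became 1 in limma-voom, 0 in DESeq2's test and 0 to 2 when a library was left out. Over all genes, DESeq2's test called 2869 in RL (1297 higher) in place of 4543 (2256 higher), and 1547 in JeKo-1 (890 higher, 657 lower) in place of 3970 (1878 higher, 2092 lower). Leaving out a treated JeKo-1 library gave 2397 to 2931 genes, 1198 to 1483 higher and 1199 to 1448 lower. Single genes lost a call in 7 alternatives in RL and 36 in JeKo-1, and the cause was not tested. The alternatives of all genes numbered 412 in RL and 352 in JeKo-1. These totals include genes not called in the main fit, which had no call to lose, so they give no rate of loss per call. The genes with the fewest counts, HSPA1A and HSPA6, are limited by depth.

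Replicate numbers were not shown to pair the RL libraries: deviations of same-numbered libraries correlated at -0.006 over genes. With replicate number as a block, 23 chaperone genes and 4416 genes in all were called in RL, and CDC37 lost its call. JeKo-1 has 1 control, so its numbers could not be checked for pairing and its own fit has no degrees of freedom left for a block. In the 4-group model with the replicate block, chosen after seeing the data, 13 chaperone genes were called in JeKo-1 (5 higher, 8 lower), 22 differed in effect between the lines (21 lower and 1 higher in RL, as HSPA6 missed the threshold at adjusted p = 0.0519), and 33 differed between the untreated lines.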
